A study of Homo sapiens with 6 samples.

Results

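The genes described here are 39 that build the nuclear pore or carry cargo through it: nucleoporins, importin alpha and beta karyopherins, and the factors of the RAN GTPase cycle. They were listed by symbol from textbook roles, with earlier results of these data known. Matching to the Ensembl gene IDs of the deposited table found 39 of 39 among 57773 IDs. The libraries come from RPE1, an immortalised human line derived from retinal pigment epithelium. Cells received 2.5 µM Nutlin-3, a small molecule that blocks the p53-binding pocket of the ubiquitin ligase MDM2, or its solvent DMSO, and RNA was taken after 24 h. Each group holds 3 poly(A) RNA-seq libraries, numbered 1 to 3 in the labels, and neither group carries a labelled genetic change. The labels do not say whether the 3 were grown apart, so the p-values rest on library-to-library spread that may be technical only.

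Nuclear pores are large protein assemblies that perforate the nuclear envelope. Scaffold nucleoporins form stacked rings, nucleoporins rich in phenylalanine-glycine (FG) repeats fill the channel, and karyopherins ferry proteins across by binding those repeats. RAN gives the traffic its direction, because RCC1 loads it with GTP on chromatin while RANGAP1 and its partners make it hydrolyse GTP in the cytoplasm. Pores are taken apart and rebuilt in each open mitosis, and new ones are inserted during interphase.

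With Nutlin-3, 33 of the 38 tested genes fell, 1 rose and 4 did not pass, where 22.5% of all 12212 genes tested were lower and 29.1% were higher (51.6% in all). The median level of the 39 genes was 68.5% of that in DMSO, and the range ran from 39.2% for NDC1 to 109% for KPNA6. Among the role groups the median was lowest in the inner ring (54.6% of DMSO) and the membrane ring (59.3%) and highest in the importin alpha adaptors (91.5%). The genes that fell included the carriers KPNA2, KPNB1, CSE1L and XPO1 and all 4 genes of the RAN cycle. RANBP2, POM121, KPNA1 and NUP133 did not pass. The test was limma on log2(RPKM + 0.5) over genes that averaged 0.5 RPKM or more. RPKM is reads per kilobase, scaled to the authors' size for the library. Benjamini-Hochberg adjustment ran over all genes tested, with a threshold of 0.05. On the log2(RPKM + 0.5) scale the median change was -0.39 over the 38 tested genes and 0.02 over all genes tested.

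The deposited values divide reads by the length of the gene with its introns, so RPKM of different genes cannot be compared and the pseudocount of 0.5 shrinks the fold change of long genes. Percentages below are therefore ratios of mean RPKM, which the pseudocount does not touch. Whole reads could be recovered for every member, between 283 and 28391 per gene and library, and limma voom was run on them as an alternative. It tested all 39 genes and called 35 lower and 1 higher, where 24.3% of 20732 genes were lower and 26.0% were higher (50.3% in all), with a median log2 change of -0.55 against 0.00 over all genes. With the summed recovered reads as library size in place of the authors' sizes, 3694 of all genes were higher and 7042 lower, the median of all genes was -0.09, and 38 of the 39 were called lower. In 35 of 39 genes the 3 Nutlin-3 libraries lay below the 3 DMSO libraries without overlap, as in 27.4% of all genes of the first test, and in 1 gene they lay above, as in 34.4%. Every library's value is given for the 26 genes that fell to at most 80% of DMSO, whose adjusted p by limma lay between 6.25e-05 and 0.00288. Differences between members were not tested. These are bulk RNA samples, in which fewer cells of a kind and less RNA per cell cannot be told apart.

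The libraries held between 28.4 and 41.1 M recovered reads. CDKN1A and MDM2, known p53 targets, were 7.24 and 3.66 times as high with Nutlin-3, with no overlap between the groups. Of 8 genes that mark mature retinal pigment epithelium, 7 averaged under 0.5 RPKM. OTX2 was at 3.18 ± 0.240 in DMSO and 2.60 ± 0.174 RPKM in Nutlin-3 (mean ± SD, n = 3). A low RPKM does not show absence in a long gene. Among the 7, MITF had 1383 to 1905 recovered reads per library, BEST1 35 to 44 and the rest at most 21. Of the epithelial and mesenchymal markers, KRT8, KRT18, KRT7 and CDH2 rose to 168%, 174%, 132% and 128% of DMSO. VIM measured 93.9% (adjusted p = 0.164 by limma and 0.0324 by limma voom). CDH1 and EPCAM, the others of that list, had only 1 to 9 and 1 to 4 recovered reads per library. No marker of blood, endothelium or muscle reached a mean of 0.5 RPKM. Of 3 neuronal markers TUBB3 did, and it fell to 84.1% (adjusted p = 0.00310 by limma). The part of these markers in the change of the pore genes was not tested. DMSO replicate 1 was the highest of its group in 31 of the 39 genes. Without it the groups still did not overlap in 35 genes, and the median level was 69.5% of DMSO.

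**Figure D1:**
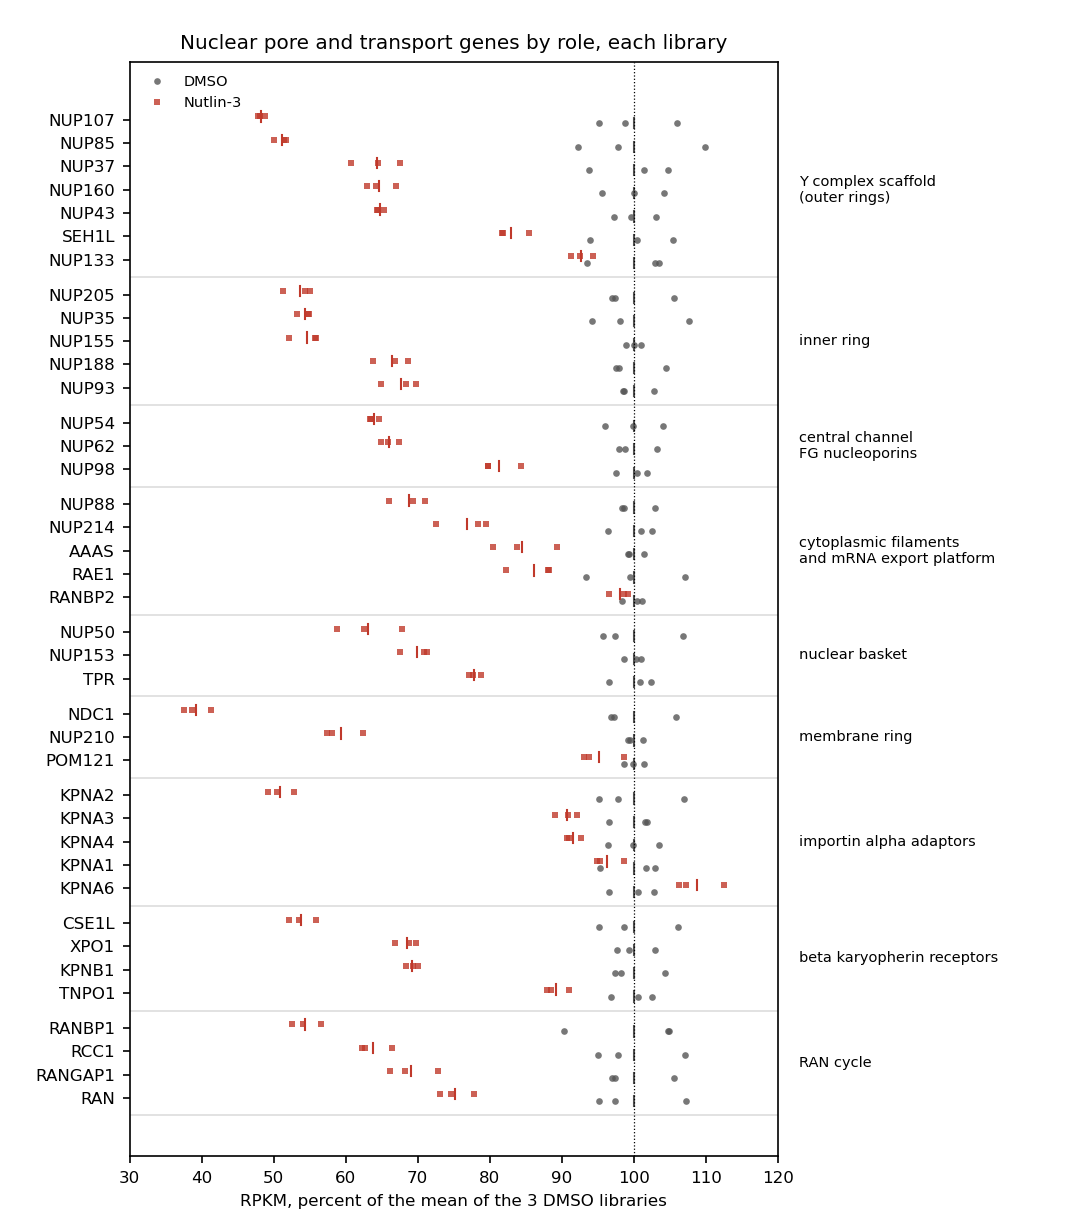
Level of each of the 39 genes in each library as a percentage of its DMSO mean (x axis), by role in the pore or in transport (right). Circles are the 3 DMSO libraries, squares the 3 Nutlin-3 libraries and ticks the group means. NDC1 is lowest at 39.2%, and KPNA6 is the 1 gene with all 3 Nutlin-3 libraries above DMSO.

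Promoter sequences are shown for NDC1 and NUP107, the 2 genes at or below 50% of DMSO, for NUP35 of the inner ring, and for KPNA2 and KPNA6, the importin alpha genes with the lowest and the highest percentage of DMSO. They were picked with their values and motifs known and do not show how often a motif goes with a fall. The sequences are the 150 bases before the annotated start in RefSeq (GRCh38.p14), on the gene's strand, 5′ to 3′. Capitals mark the cell cycle homology region motif (CHR, TTTGAA or TTCAAA on the other strand), which the MuvB complexes of the cell cycle are known to bind, and the CCAAT box (CCAAT or ATTGG).
NDC1 (chr1:53838297-53838446, minus strand): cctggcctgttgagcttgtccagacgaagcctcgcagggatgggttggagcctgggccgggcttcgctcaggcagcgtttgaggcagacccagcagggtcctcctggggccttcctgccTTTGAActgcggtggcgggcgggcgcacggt
NUP107 (chr12:68686828-68686977, plus strand): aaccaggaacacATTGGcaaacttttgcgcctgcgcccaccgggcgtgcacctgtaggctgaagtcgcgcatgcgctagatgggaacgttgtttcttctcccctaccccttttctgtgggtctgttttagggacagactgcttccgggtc
NUP35 (chr2:183124293-183124442, plus strand): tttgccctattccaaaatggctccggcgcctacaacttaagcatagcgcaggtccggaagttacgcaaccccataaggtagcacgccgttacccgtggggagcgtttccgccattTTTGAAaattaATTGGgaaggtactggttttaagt
KPNA2 (chr17:68035585-68035734, plus strand): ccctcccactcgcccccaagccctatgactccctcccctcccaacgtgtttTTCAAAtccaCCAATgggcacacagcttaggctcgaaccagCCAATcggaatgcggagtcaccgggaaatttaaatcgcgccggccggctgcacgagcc
KPNA6 (chr1:32107906-32108055, plus strand): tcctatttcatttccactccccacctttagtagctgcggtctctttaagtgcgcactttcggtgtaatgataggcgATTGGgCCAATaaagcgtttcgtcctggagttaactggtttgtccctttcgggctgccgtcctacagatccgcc
NDC1 held a CHR match whose first base lay 31 bases before the start. NUP107 held none in its 300 bases, and a CCAAT box at 138 bases before the start. NUP35 held one at 35 bases before the start followed by a CCAAT box at 24. KPNA2 held a CHR match at 99 bases before the start, with CCAAT boxes at 89 and 58, and a further CHR match at base 33 after it, outside the stretch shown. KPNA6 held a pair of CCAAT boxes, at 74 and 68 bases before the start, and no CHR match.

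Of the 39 genes, 35 had a RefSeq promoter of 300 bases (250 before and 50 after the start). The others were NUP43, KPNA4, KPNB1 and RANBP1. A CHR match stood in 9 of 35, or 25.7%, against 15.4% of 27305 promoters of that length. These were CSE1L, KPNA2, NDC1, NUP153, NUP205, NUP35, NUP37, NUP98 and RAN. All 9 were lower with Nutlin-3 on the recovered reads, with a median of 54.3% of DMSO and a range from 39.2% to 81.3%, and so were 22 of the 26 without the letters, with a median of 68.9% and a range from 48.2% to 109%. The medians with and without the other motifs were 67.6% and 69.5% for CCAAT, 64.3% and 69.5% for ETS, 68.8% and 65.2% for the GC box, 70.8% and 68.5% for the MYC E-box and 63.1% and 68.9% for NRF1, and the 1 promoter with an E2F match was that of NUP155. None of these differences was tested. CCAAT boxes stood in 42.9% of the 35 promoters and 35.7% of all promoters. The ETS motif (CCGGAAG) stood in 31.4% against 10.7%, the GC box (GGGCGG) in 54.3% against 44.6% and the MYC E-box (CACGTG) in 11.4% against 7.43%. The core of the NRF1 motif stood in 8.57% against 1.36%, and E2F motifs (TTTCCCGC, TTTCGCGC, TTTGCCGC or TTTGGCGC) in 2.86% against 3.33%. Each motif was searched on both strands. A single promoter per gene was used, and the 27305 were not limited to genes expressed in these cells. Letters in a window describe the sequence and do not show binding.

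The Y complex forms the outer rings of the pore and is the first scaffold laid on chromatin after mitosis. Of the 7 Y complex genes listed among the pore and transport genes described here, 6 fell, with a median of 64.7% of DMSO. SEC13, a Y complex subunit outside that list, rose to 114% (adjusted p = 0.00297 by limma). NUP107 (ENSG00000111581), a core subunit of the stem, measured 1.34, 1.248 and 1.20 RPKM in DMSO and 0.604, 0.617 and 0.608 RPKM in Nutlin-3, in replicate order 1 to 3. The groups lie far apart, at 48.2% of DMSO, a log2 change of -0.67 (SE 0.0347, limma adjusted p = 9.53e-05) and -1.05 on the recovered reads. NUP85, of the short arm, stood at 1.75, 1.56 and 1.47 RPKM in DMSO and 0.798, 0.825 and 0.821 RPKM in Nutlin-3. DMSO replicate 1 was the highest of these, and the Nutlin-3 mean was 51.1% of DMSO (adjusted p = 0.000317 by limma).

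NUP160, a large subunit of the other arm, had 0.895, 0.822 and 0.860 RPKM in DMSO and 0.575, 0.551 and 0.540 RPKM in Nutlin-3. NUP43, a small propeller protein of the short arm, had 2.08, 1.96 and 2.01 RPKM in DMSO and 1.30, 1.32 and 1.30 RPKM in Nutlin-3. For NUP37, which rests on NUP160, the values were 0.673, 0.652 and 0.603 RPKM in DMSO and 0.390, 0.434 and 0.415 RPKM in Nutlin-3. These 3 genes fell to nearly the same extent, 64.7%, 64.7% and 64.3% of DMSO, and their Nutlin-3 libraries stayed below all DMSO libraries. SEH1L, shared with the amino acid sensing GATOR2 complex, fell to 83.0% (adjusted p = 0.00877 by limma). NUP133, the partner of NUP107 at the tip of the stem, measured 0.863, 0.780 and 0.860 RPKM in DMSO and 0.762, 0.787 and 0.772 RPKM in Nutlin-3. Its DMSO replicate 2 lay within the Nutlin-3 range, the mean was 92.7% of DMSO, and it did not pass (adjusted p = 0.149 by limma). On the recovered reads NUP133 passed narrowly (log2 change -0.11, limma voom adjusted p = 0.0448), as it did on RPKM without DMSO replicate 2 (adjusted p = 0.0446). NUP133 overlaps a same-strand gene over 7.86% of its exon length.

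The inner ring holds the scaffold to the membrane and carries the channel proteins. Its 4 tested members fell and NUP35 was lower on the recovered reads, with a median over the 5 of 54.6% of DMSO. NUP205, one of its large solenoid proteins, had 1.42, 1.31 and 1.30 RPKM in DMSO and 0.688, 0.730 and 0.739 RPKM in Nutlin-3, a fall to 53.6% (log2 change -0.59, SE 0.0354, adjusted p = 0.000133 by limma). Its paralog NUP188 had 2.32, 2.17 and 2.17 RPKM in DMSO and 1.42, 1.49 and 1.53 RPKM in Nutlin-3, or 66.5% of DMSO. NUP155, which contacts the membrane, measured 0.863, 0.871 and 0.853 RPKM in DMSO and 0.450, 0.482 and 0.481 RPKM in Nutlin-3. The DMSO values of NUP155 lay close together, and the Nutlin-3 mean was 54.6% of theirs (adjusted p = 9.75e-05 by limma).

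NUP93, the linker that anchors the channel nucleoporins, measured 0.629, 0.604 and 0.603 RPKM in DMSO and 0.397, 0.427 and 0.418 RPKM in Nutlin-3, or 67.6% of DMSO. NUP35, which binds membrane and NUP155, lay under the minimum of 0.5 RPKM and was not tested on RPKM. It measured 0.426, 0.388 and 0.373 RPKM in DMSO and 0.217, 0.217 and 0.211 RPKM in Nutlin-3, on 283 to 796 reads per library. On those reads its log2 change was -0.89 (limma voom adjusted p = 2.66e-10), and the mean was 54.3% of DMSO. NUP205, NUP35 and NUP155 stood between 53.6% and 54.6% of DMSO, and NUP188 and NUP93 at 66.5% and 67.6%.

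The channel itself is lined by FG nucleoporins. NUP62, the central one, had 5.03, 4.82 and 4.78 RPKM in DMSO and 3.17, 3.21 and 3.29 RPKM in Nutlin-3 and NUP54, its partner in a coiled-coil complex, had 1.498, 1.44 and 1.38 RPKM in DMSO and 0.915, 0.913 and 0.931 RPKM in Nutlin-3. Both fell, to 66.1% and 63.9% of DMSO (adjusted p = 0.000115 and 0.000174 by limma). NUP58, the third member of that complex and no part of the 39, fell to 72.4%. NUP98, which carries GLFG repeats and binds RAE1, fell from 1.04 ± 0.0226 to 0.845 ± 0.0268 RPKM (mean ± SD, n = 3), or 81.3%. NUP62 shares 11.96% of its exon length with other genes on the same strand, among them IL4I1, and 10.4% with ATF5 on the opposite strand.

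On the cytoplasmic side, where messenger RNA is released and cargo complexes are taken apart, 4 of 5 members fell, with a median of 84.5% of DMSO. NUP88 had 0.946, 0.903 and 0.906 RPKM in DMSO and 0.652, 0.637 and 0.607 RPKM in Nutlin-3, and NUP214, its partner, had 0.735, 0.701 and 0.746 RPKM in DMSO and 0.528, 0.570 and 0.579 RPKM in Nutlin-3. The means were 68.8% and 76.8% of DMSO, without overlap. NUP88 shares 18.7% of its exon length with genes on the opposite strand, and the strand setting of the counting is not given in the sources used here. AAAS, the aladin protein, fell to 84.5% (adjusted p = 0.00679 by limma) and RAE1, an export factor, to 86.2% (adjusted p = 0.0351). The call on RAE1 was lost without any 1 library except DMSO replicate 3, with adjusted p between 0.0673 and 0.105.

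RANBP2, the giant filament protein that binds RAN and acts as a SUMO ligase, measured 2.25, 2.20 and 2.27 RPKM in DMSO and 2.22, 2.16 and 2.21 RPKM in Nutlin-3. The groups overlapped, with a mean of 98.1% of DMSO (log2 change -0.02, SE 0.0228, adjusted p = 0.455 by limma). The RGPD genes are near-identical copies of RANBP2, and reads of 7 of them came to 75.6% of its own, with a summed level of 101% of DMSO, so the value of RANBP2 is uncertain. With the summed recovered reads as library size RANBP2 was called lower (log2 change -0.12, limma voom adjusted p = 0.00219).

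In the nuclear basket, which faces chromatin, all 3 members fell. NUP50, a mobile basket protein that helps release importin alpha cargo, had 3.91, 3.51 and 3.56 RPKM in DMSO and 2.15, 2.29 and 2.48 RPKM in Nutlin-3, or 63.1% of DMSO. NUP153 had 1.14, 1.13 and 1.11 RPKM in DMSO and 0.760, 0.796 and 0.801 RPKM in Nutlin-3 and TPR, the filament protein of the basket, had 3.90, 3.73 and 3.95 RPKM in DMSO and 2.98, 3.04 and 3.00 RPKM in Nutlin-3. Their means were 69.9% and 77.9% of DMSO, and in all 3 genes the Nutlin-3 libraries stayed below the DMSO libraries.

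The membrane ring contains the proteins that span the nuclear envelope, and its 3 members ranged from 39.2% to 95.2% of DMSO. NDC1 (ENSG00000058804), which is needed for pore insertion, measured 1.70, 1.56 and 1.56 RPKM in DMSO and 0.603, 0.621 and 0.663 RPKM in Nutlin-3. This was the deepest fall of the 39, to 39.2% of DMSO (log2 change -0.90, SE 0.0386, adjusted p = 6.25e-05 by limma, and -1.35 on the recovered reads). NUP210, the lumenal ring protein, had 0.972, 0.976 and 0.993 RPKM in DMSO and 0.563, 0.569 and 0.612 RPKM in Nutlin-3, a fall to 59.3%. POM121 measured 1.01, 0.981 and 0.994 RPKM in DMSO and 0.933, 0.926 and 0.981 RPKM in Nutlin-3. Its highest Nutlin-3 value equalled its lowest DMSO value to 3 digits, the mean was 95.2% of DMSO, and it did not pass (adjusted p = 0.177 by limma). Of 3 genes named after POM121, 1 had reads, which came to 40.7% of those of POM121. Likeness in sequence was not checked, and POM121C was not found among the IDs. POM121 also shares 18.9% of its exon length with genes on the opposite strand, so its value is uncertain. Only 2 of the 39 genes, NDC1 and NUP107, were at or below 50% of DMSO, and 24 were at or below 75% and called lower on the recovered reads, where 3.35% and 11.6% of all genes met those marks.

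Importin alpha proteins are adaptors that bind the classical nuclear localisation signal and hand the cargo to importin beta. KPNA2 (ENSG00000182481), the adaptor typical of dividing cells, measured 24.3, 21.6 and 22.2 RPKM in DMSO and 11.2, 11.5 and 11.97 RPKM in Nutlin-3, a fall to 50.8% of DMSO (log2 change -0.94, SE 0.0534, adjusted p = 0.000116 by limma). The other 4 adaptors stood between 90.7% and 109% of DMSO. KPNA3 and KPNA4 measured 90.7% and 91.5% (adjusted p = 0.0238 and 0.0311 by limma), and KPNA1 measured 96.3% and did not pass (adjusted p = 0.363). KPNA6 was the 1 gene that rose, with 1.66, 1.59 and 1.69 RPKM in DMSO and 1.77, 1.75 and 1.85 RPKM in Nutlin-3. The rise to 109% only just passed (adjusted p = 0.0495 by limma) and was lost without any 1 of the 6 libraries, with adjusted p between 0.0580 and 0.136. With the summed recovered reads as library size its log2 change was 0.02 (limma voom adjusted p = 0.597). KPNA6 overlaps a same-strand gene over 8.92% of its exon length, and KPNA1 an opposite-strand gene over 16.3%. The calls on KPNA3 and KPNA4 were lost without any 1 library except DMSO replicate 2, with adjusted p of at most 0.0719 and 0.0946.

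With the recovered reads scaled to library size and exon length (exon RPKM), KPNA2 held 56.7, 55.3 and 54.6% of the summed level of these 5 importin alpha genes in the 3 DMSO libraries and 39.2, 39.8 and 40.5% in the 3 Nutlin-3 libraries. With KPNA5 and KPNA7 counted too, importin alpha genes outside the 39, KPNA2 held 55.0 ± 1.11% and 39.3 ± 0.625% of the 7 (mean ± SD, n = 3). Among the 5, the share of KPNA6 went from 10.3 ± 0.390% to 15.7 ± 0.249% (mean ± SD, n = 3) and that of KPNA3 from 17.6 ± 0.454% to 22.5 ± 0.437%. The summed level of the 5 genes went from 147 ± 6.76 to 104 ± 2.08 on that scale (mean ± SD, n = 3). The shift in shares thus came with a lower total, and of the 4 other adaptors, which all gained share, KPNA6 alone had a higher level. Reads of 3 annotated pseudogene copies of KPNA2 came to 25.8% of its own. They stood at 93.2% of DMSO, so adding them to the gene would make its fall smaller.

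**Figure D2:**
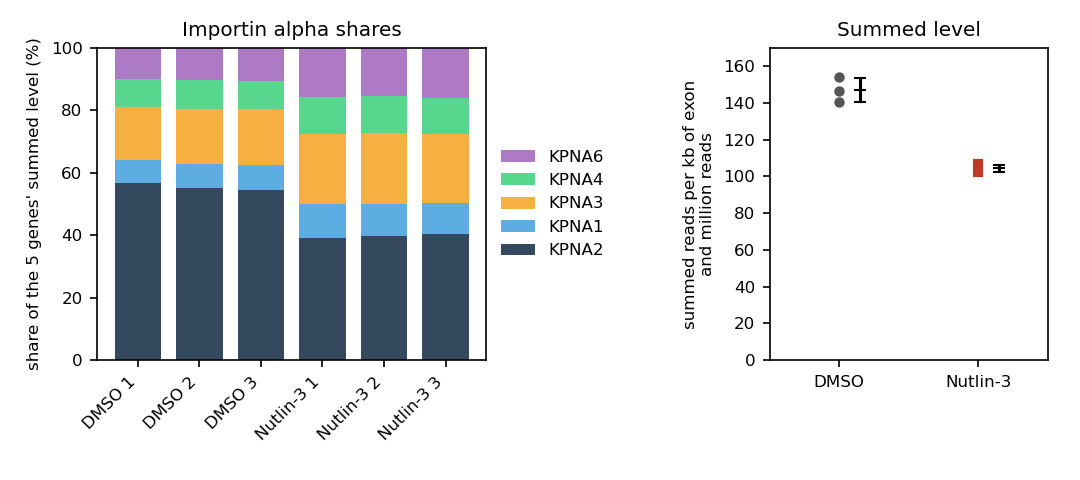
Left, share of each of the 5 importin alpha genes in their summed level per exon length (y axis, percent) in each library (x axis). Right, that summed level in exon RPKM, with points for libraries and bars for mean and SD (n = 3). KPNA2 goes from about 55.5% to 39.8% of the total.

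The beta karyopherins carry cargo through the channel. CSE1L (ENSG00000124207), which returns importin alpha to the cytoplasm, fell most, with 4.88, 4.38 and 4.54 RPKM in DMSO and 2.40, 2.46 and 2.57 RPKM in Nutlin-3, or 53.9% of DMSO (log2 change -0.78, SE 0.0456, adjusted p = 0.000130 by limma). KPNB1, importin beta itself, had 18.6, 17.5 and 17.4 RPKM in DMSO and 12.2, 12.4 and 12.5 RPKM in Nutlin-3. XPO1, the exporter of proteins with leucine-rich signals, had 6.85, 6.50 and 6.61 RPKM in DMSO and 4.64, 4.58 and 4.45 RPKM in Nutlin-3. The last 2 fell alike in size, to 69.2% and 68.5% of DMSO. TNPO1, which imports hnRNP proteins by another signal, fell from 3.31 ± 0.0956 to 2.95 ± 0.0543 RPKM (mean ± SD, n = 3), or 89.2% (adjusted p = 0.00974 by limma).

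All 4 genes of the RAN cycle fell. RANBP1, which helps strip RAN from exported complexes, had 8.41, 7.24 and 8.41 RPKM in DMSO and 4.33, 4.22 and 4.54 RPKM in Nutlin-3, or 54.4% of DMSO (log2 change -0.81, SE 0.0655, adjusted p = 0.000355 by limma). RCC1, the exchange factor bound to chromatin, had 5.61, 4.98 and 5.12 RPKM in DMSO and 3.28, 3.26 and 3.48 RPKM in Nutlin-3, and RANGAP1, the GTPase activating protein, had 6.19, 5.70 and 5.72 RPKM in DMSO and 3.88, 4.004 and 4.27 RPKM in Nutlin-3. Their means were 63.8% and 69.0% of DMSO.

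RAN itself measured 68.5, 60.9 and 62.3 RPKM in DMSO and 46.7, 47.7 and 49.8 RPKM in Nutlin-3. It fell least of the 4, to 75.2% (adjusted p = 0.00202 by limma). Annotated pseudogene copies of RAN and RANBP1 carried 10.5% and 11.2% as many reads as the genes and stood at 77.5% and 57.6% of DMSO, near the values of the genes. RCC1 shares 6.22% of its exon length with SNHG3 on the same strand.

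Levels were set side by side between genes by dividing the recovered reads by exon length. This takes the counted reads to be exonic, which no source used here states. On that scale KPNB1 (83.8 ± 3.21), KPNA2 (81.8 ± 5.07) and RAN (76.8 ± 4.91) led in DMSO (exon RPKM, mean ± SD, n = 3), and their spreads overlapped. CSE1L followed at 61.3 ± 3.41 and then RCC1 and RANGAP1 at 44.9 ± 2.84 and 44.6 ± 2.15, which did not differ beyond their spread. Nucleoporins ranged from 23.0 ± 1.16 for NDC1 down to 4.32 ± 0.300 for NUP35. With Nutlin-3, KPNB1 (58.03 ± 0.661) and RAN (57.7 ± 1.89) did not differ beyond their spread, and KPNA2 stood at 41.6 ± 1.48. NDC1 went from rank 10 to rank 20 of the 39 and KPNA6 from rank 17 to rank 10. The exon length includes every annotated exon of GENCODE 29, so genes with rarely used exons appear lower than they are.

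**Figure D3:**
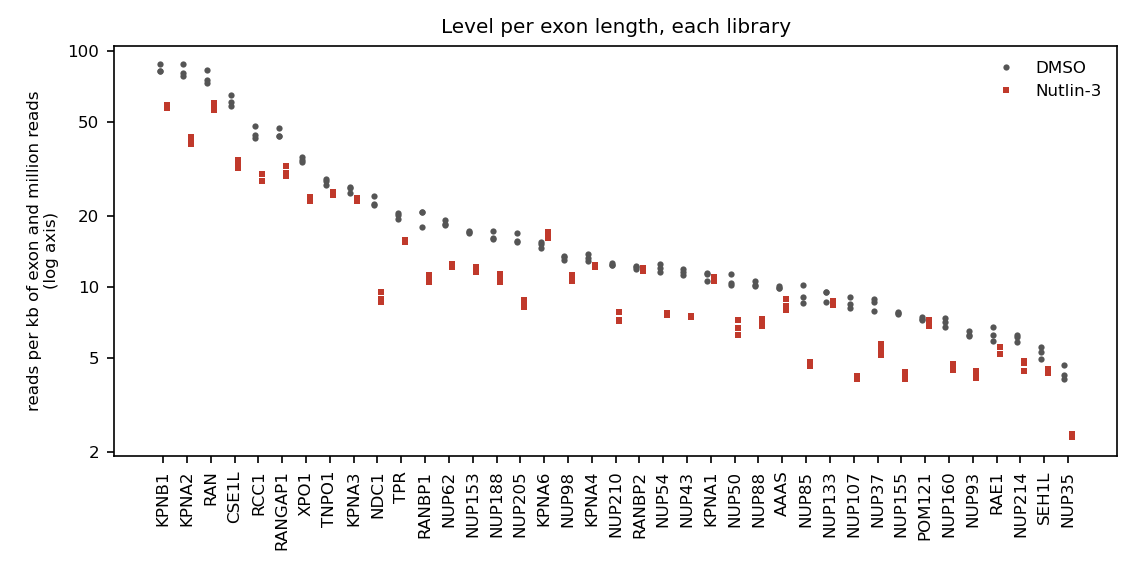
Level of each gene in each library in exon RPKM (y axis, log scale), ordered by the DMSO mean. Circles are DMSO and squares Nutlin-3 libraries. KPNB1, KPNA2 and RAN lead in DMSO, and NUP35 is lowest in both groups.

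For other genes of nuclear transport the median change was smaller. Of 65 genes in 4 lists, 64 had an ID and 54 were tested. Of the 54, 28 fell and 7 rose, where 22.5% of all genes tested were lower and 29.1% were higher. Without any 1 library between 3 and 5 of the 54 rose. The median was 89.8% of DMSO over the 64 genes. Of 6 tested nucleoporins outside the 39, NUP58, AHCTF1 and GLE1 (the last named after its values were seen) fell and SEC13 rose. AHCTF1 (ELYS), which seeds pores on chromatin, stood at 71.0% of DMSO, and SEC13, a Y complex subunit that also coats ER vesicles, at 114% (adjusted p = 0.00297 by limma).

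Of 17 tested transport receptors and RAN factors, 8 fell and 1 rose, with a median of 91.9% of DMSO over 22 genes. The importins IPO9 and IPO7 fell to 75.03% and 84.0%, and IPO4 rose to 111% (adjusted p = 0.0448 by limma), a call lost without any 1 library except Nutlin-3 replicate 1 (adjusted p from 0.0584 to 0.130). Of 20 tested messenger RNA export factors, 11 fell and 4 rose. The helicase DDX39A fell from 7.53 ± 0.609 to 3.92 ± 0.170 RPKM and THOC6 of the THO complex to 55.8% of DMSO, while the export receptor NXF1 and the zinc finger protein ZC3H11A rose to 111% and 114%. The call on NXF1 was lost without any 1 of the Nutlin-3 libraries (adjusted p from 0.0642 to 0.0954 by limma). Of 11 tested SUMO factors, 6 fell and 1 rose. UBA2 and SAE1, the 2 subunits of the SUMO activating enzyme, fell alike, to 71.3% and 71.4%, and the protease SENP6 rose to 111%. The call on SENP6 was lost without any 1 library except DMSO replicate 3 (adjusted p from 0.0570 to 0.0782 by limma). SENP1, under 0.5 RPKM on average and named after its values were seen, stood at 64.2% (limma voom adjusted p = 4.72e-10).

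The lists used for comparison were the nuclear lamina and cell cycle genes. Of 13 tested genes of the lamina and inner nuclear membrane, 6 fell and 2 rose, where 22.5% of all genes tested were lower and 29.1% higher. The median was 91.4% of DMSO over 17 genes. TMPO and LMNB1 (lamin B1) fell to 36.4% and 27.5%, and LEMD2 and TOR1AIP2 rose to 110% and 110%. On the recovered reads SYNE1 and SYNE2, nesprins that averaged under 0.5 RPKM and are named here after their values were seen, stood at 168% and 41.6% of DMSO (limma voom adjusted p = 1.08e-12 and 7.31e-18). The call on LEMD2 was lost without any 1 library except Nutlin-3 replicate 1 (adjusted p from 0.0741 to 0.101 by limma). All 17 tested replication factors and all 20 mitotic genes fell. The medians were 33.3% of DMSO over all 20 replication factors listed and 31.8% over the mitotic genes. Their ranges ran from 26.5% to 57.8% and from 26.8% to 36.3%. On log2(RPKM + 0.5) the deepest falls were those of RRM2 and MCM7 (28.4% and 34.0%) and of KIF20A and CDC20 (29.6% and 30.9%). As ratios of mean RPKM, and on the recovered reads, CDC45 (26.5%) and NUF2 (26.8%), named after their values were seen, were lowest in their lists. None of the 39 pore and transport genes reached the range of the mitotic genes, and NDC1 came nearest at 39.2%. The range of the replication factors was wider only through PCNA (57.8%), TYMS (52.0%) and RRM1 (44.4%). Their other listed genes stood at 34.8% or lower, below every pore and transport gene. NDC1, NUP107, KPNA2, NUP85, NUP205, CSE1L, NUP35, RANBP1 and NUP155 lay within the whole range, and the other pore and transport genes above it. The part of the cell cycle genes' change in that of the pore genes was not tested.

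**Figure D4:**
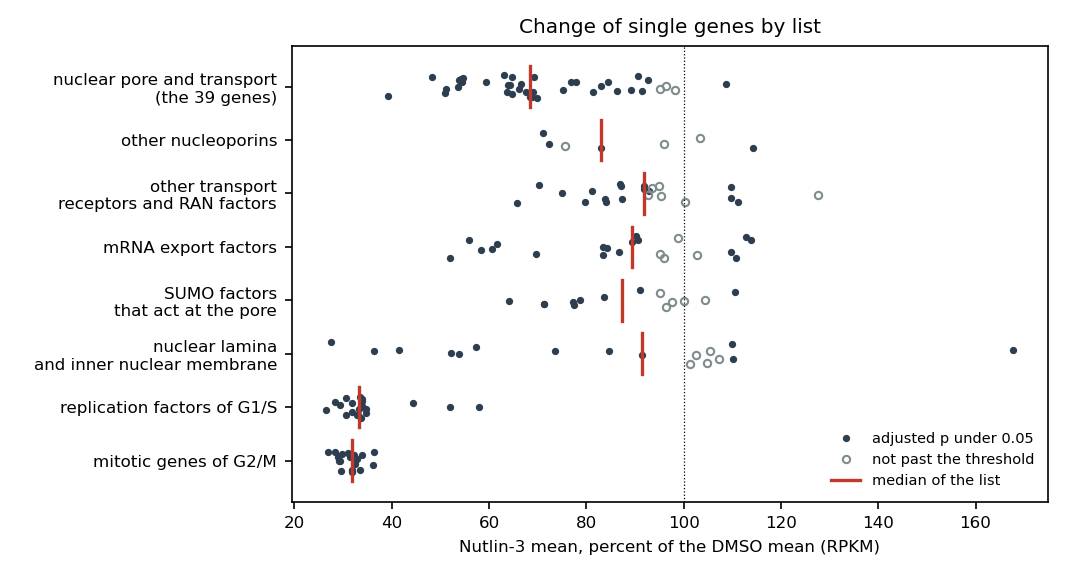
Mean level with Nutlin-3 as a percentage of the DMSO mean (x axis) for each gene with a mean of at least 10 recovered reads, by list. Filled points passed an adjusted p of 0.05 on the recovered reads, open points did not, and red lines are list medians. The pore and transport genes centre on 68.5%, the cell cycle lists on 33.3% and 31.8%.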

How the data were processed

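The deposited table holds RPKM per gene for 6 libraries, and all of its value columns were matched to a sample. The tools named are TopHat2, CASAVA 1.8.2 and edgeR, on hg19, per the submitters' processing notes, which give no roles. What counted the reads, on which annotation and strand, is not given in the sources used here. In the authors' RPKM the divisor is gene length with introns: 88.2% of low values were whole reads (within 0.01 read) with the span of GENCODE 29 and 29.1% with its exon length. Reads were recovered from the span for 26607 genes and from ratios between libraries for 9756.

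Tests used limma 3.58.1 (R 4.3.3) with a mean-variance trend on log2(RPKM + 0.5), for genes averaging 0.5 RPKM or more. The alternative was limma voom on recovered reads, for genes with a mean of at least 10, with the authors' library sizes. Both were tested on simulated data, in which far fewer genes changed than were called here. Changes as small as those of KPNA6 and RAE1 were not simulated. Replicates with the same number were not paired (correlations of their deviations from -0.02 to 0.02). RefSeq promoters are of GRCh38.p14, and no coordinate was taken from the deposited table.

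The members and lists were chosen with earlier results of these data known. Library values were given for members that changed by at least 1.25 times and passed, and for KPNA6, and of each other list up to 2 rises and 2 falls were named. NUP35, NUP133, RANBP2 and POM121 were added to these after their values were seen. Other settings tried were pseudocounts, filters, scalings, a replicate block and leaving out each library.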

Additional observations from a re-analysis of the deposited data

How the results depend on the processing

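Of the 38 tested pore and transport genes, 29 kept their direction and their side of the threshold under all 17 alternatives, 16 of them planned, with the 1 RPKM minimum testing only 25 of the genes. The others were NUP133, RANBP2, RAE1, POM121, KPNA1, KPNA3, KPNA4, KPNA6 and TNPO1, which all stood between 86.2% and 109% of DMSO. The number lower was 33, and it was 23 of 25 tested with a minimum of 1 RPKM, 35 with limma voom, 38 with summed reads as library size, and 30 to 33 without any 1 library. The number higher was 1 (KPNA6) and fell to 0 with a pseudocount of 1, with no filter, with a minimum of 1 RPKM, with a minimum and pseudocount of 0.1, with summed reads as library size, with size factors over the tested genes (chosen after seeing the data) and without any 1 library (0 to 0). Related genes that rose numbered 7, but 4 with no filter, 4 with size factors over the tested genes, 2 with summed reads as library size and 3 to 5 without any 1 library. Those that fell numbered 28, but 48 with summed reads as library size. Over all genes, limma voom called 5380 higher and 5044 lower of 20732 tested, and with summed reads as library size it called 7042 lower. LMNA, not called, changed sign there (log2 change -0.022). The causes were not tested. Same-numbered libraries did not deviate together (correlations -0.02, 0.01 and 0.02). With the replicate number as a block, 29 members were lower and 0 higher, and 3 related genes were higher and 24 lower, with RAE1, KPNA3, KPNA4, KPNA6 and TNPO1 no longer past the threshold. Depth was at least 283 reads for each member and library, and 3 libraries a group limit the precision.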

Other observations

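Close relatives outside the pore genes did not all move alike. The pairs given here were picked after their values were seen, and the difference within a pair was not tested. DDX39A and DDX39B are paralogous helicases of messenger RNA export. DDX39A measured 8.16, 7.50 and 6.94 RPKM in DMSO and 3.83, 3.82 and 4.12 RPKM in Nutlin-3, whereas DDX39B measured 28.8, 27.2 and 26.5 RPKM and 26.0, 26.0 and 26.5 RPKM (52.1% and 95.1% of DMSO, adjusted p = 0.000270 and 0.168 by limma). DDX39B was called lower with quantile normalization (log2 change -0.15, adjusted p = 0.00389 by limma), with size factors over the tested genes (-0.10, adjusted p = 0.0309) and with summed reads as library size (-0.17, adjusted p = 0.000107 by limma voom). NXT1, the cofactor of the export receptor NXF1, fell from 2.68, 2.28 and 2.66 to 1.39, 1.37 and 1.68 RPKM, or 58.3% of DMSO (adjusted p = 0.00214 by limma), where NXF1 stood at 111%. Among the lamins, both B types fell, LMNB1 to 27.5% and LMNB2 to 53.9% of DMSO. LMNA, the A type, measured 9.43, 8.81 and 9.29 RPKM in DMSO and 9.19, 9.66 and 10.2 RPKM in Nutlin-3, groups that overlapped (105% of DMSO, adjusted p = 0.252 by limma).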
